A study of Danio rerio with 6 samples.

Results

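The miR-34 family in cold acclimated zebrafish ZF4 cells is described here by 4 mature miRNAs, dre-miR-34a, dre-miR-34b, dre-miR-34c-5p and dre-miR-34c-3p. They were taken by name from the 414 miRNAs of the deposited table, of which 349 are known and 65 predicted, and every row named miR-34 was included. ZF4 is an embryonic fibroblast line of zebrafish (Danio rerio) from 1 commercial source, so all libraries share 1 cell line. The cold acclimation group was held at 18°C for 30 days (3 libraries), and the control group was grown at 28°C in the same serum-containing medium (3 libraries). The labels give no genotype change or added agent in either group, and the series' design text calls the 3 samples of each condition biological replicates.

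miR-34 miRNAs are best known in mammals, where the tumour suppressor p53, a transcription factor activated by DNA damage and other stress, raises the transcription of their genes. Mammalian miR-34a is made in many tissues and represses mRNAs for proteins of the cell cycle and of cell survival, among them cyclin-dependent kinases, MET and BCL2. Mammalian miR-34b and miR-34c come from 1 shared transcript and are mostly made in epithelia with motile cilia, such as those of the airway, and in the testis. Each hairpin precursor can give a 5p and a 3p strand, and only the strand loaded into an Argonaute protein guides repression.

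The zebrafish genes fall into the same arrangement. In the RefSeq annotation of assembly GRCz12tu, used here for gene order only, mir34c and mir34b lie next to each other between the protein-coding genes hoatz and btg4, with no annotated gene between the 2 miRNA genes. mir34a lies on another chromosome, within the intervals of the protein-coding gene spsb1 and of a long non-coding RNA, and beside gpr157. The 4 mature miRNAs therefore come from 3 genes at 2 places, and both strands of miR-34c come from 1 hairpin.

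Levels are given in what the authors named TPM: the reads of a miRNA in every 1000000 miRNA reads of its library, without a term for length. The libraries held between 11748241 and 14960610 such reads, so that 1 read was worth 0.0668 to 0.0851 TPM. limma was run on log2(TPM + 1) over the 310 miRNAs whose mean exceeded 1.5 TPM, or about 20 reads. "Rose" and "fell" below stand for an adjusted p under 0.01 (Benjamini-Hochberg over the 310), and a DE-miRNA is one that also changed by more than 2.5 times. Of the 4 members, 1 passed this filter, dre-miR-34a. As TPM are shares of a bulk library, fewer cells that make a miRNA and less of it per cell cannot be told apart.

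The fibroblast label was checked against lists of marker miRNAs. The 8 mesenchymal miRNAs, typical of fibroblasts, summed to 388748 to 428403 TPM in cold acclimation libraries and 403923 to 408709 TPM in control libraries, most of it dre-miR-21, with 395158 ± 22578 TPM in cold acclimated cells and 390449 ± 5408 TPM in control cells (SD, n = 3 each). The 14 epithelial miRNAs summed to 104 to 140 TPM in cold acclimation libraries and 106 to 203 TPM in control libraries, and the 8 neural ones to 16.4 to 27.8 TPM in cold acclimation libraries and 20.7 to 21.0 TPM in control libraries. The 6 muscle miRNAs summed to 2.64 to 3.06 TPM in cold acclimation libraries and 4.0 to 6.35 TPM in control libraries, and the 4 blood miRNAs to 2.43 to 4.34 TPM in cold acclimation libraries and 2.67 to 4.21 TPM in control libraries. No listed marker was at 0 in all 6 libraries. As dre-miR-21 made up most of the mesenchymal sum, that sum hardly reflects the other mesenchymal miRNAs. The mesenchymal list had a median log2 fold change of -0.70. Control replicate 3 stood apart from the other controls in the fibroblast and muscle-wall miRNAs miR-143 and miR-145: dre-miR-143 had 374 TPM in it, against 4765 and 4665 TPM in control replicates 1 and 2.

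The family was carried almost wholly by dre-miR-34a at both temperatures. Together, dre-miR-34a, dre-miR-34b and dre-miR-34c-5p had 245, 278 and 137 TPM in cold acclimation replicates 1, 2 and 3, against 75.1, 67.3 and 117 TPM in control replicates 1, 2 and 3. dre-miR-34a made up 99.8%, 99.7% and 99.7% of this sum in the cold acclimation libraries and 97.9%, 98.2% and 99.2% in the control libraries. Among the 349 known miRNAs, ranked from the most abundant, dre-miR-34a stood between places 91 and 104 in cold acclimation libraries and between places 106 and 125 in control libraries. The other members were at the edge of detection. Over all 6 libraries, dre-miR-34b had 53 reads and each strand of miR-34c had 20 reads, against 11802 reads for dre-miR-34a.

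dre-miR-34a was higher in cold acclimated cells. Its level was 245, 277 and 136 TPM in cold acclimation replicates 1, 2 and 3, against 73.5, 66.1 and 116 TPM in control replicates 1, 2 and 3. Every cold acclimation library lay above every control library, a separation in this direction seen in 29.7% of the 310 tested miRNAs. The nearest libraries were cold acclimation replicate 3 and control replicate 3, whose levels differed by a factor of 1.17. Cold acclimation replicates 1 and 2 were the highest of the 6.

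These levels rest on many reads. dre-miR-34a had 2955, 3253 and 1903 reads in the cold acclimation libraries and 1100, 906 and 1685 reads in the control libraries. The 95% Clopper-Pearson intervals were 130 to 143 TPM for cold acclimation replicate 3 and 111 to 122 TPM for control replicate 3, so that even the nearest libraries differed by more than counting error. PCR copies are not independent molecules, and these intervals cover counting error only. The spread within each condition was far wider, with a coefficient of variation of 33.6% in cold acclimated cells and 31.7% in control cells.

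**Figure D1:**
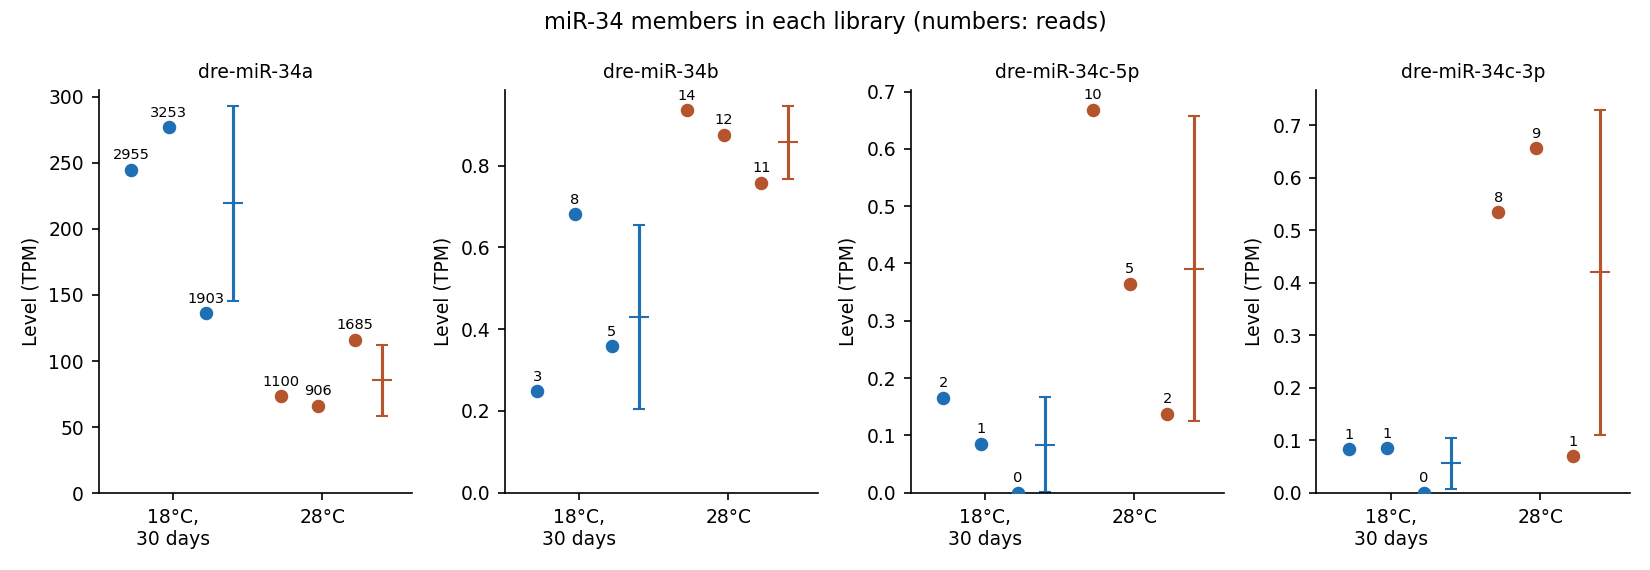
Level in TPM (vertical axis, linear, separate scale for each miRNA) of the 4 miR-34 members in the 3 cold acclimation libraries (18°C, left) and the 3 control libraries (28°C, right). Points are replicates 1, 2 and 3 from left to right with their reads, and bars are the mean ± SD. dre-miR-34a lies between 136 and 277 TPM at 18°C and between 66.1 and 116 TPM at 28°C, while the other members have at most 14 reads.

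The mean of dre-miR-34a was 219 ± 73.7 TPM in cold acclimated cells and 85.3 ± 27.1 TPM in control cells (SD, n = 3 each), a ratio of 2.57. On the log2(TPM + 1) scale its fold change was 1.33 with a standard error of 0.30 and a 95% interval of 0.66 to 2.01 (limma, adjusted p = 0.00578), so it rose. In the same fit 16.5% of the 310 tested miRNAs rose and 14.5% fell. The fold change was the 23rd highest of the 310, while by p-value it held place 71. Its standard error was larger than the median of 0.22 over all tested miRNAs, and 9.68% of them had a larger one. A two-sided exact permutation test of its TPM gave p = 0.1, the smallest value that 3 against 3 libraries allow.

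The rise of dre-miR-34a passed the fold change threshold by a small margin. The threshold is 1.32 on the log2 scale, and dre-miR-34a exceeded it by 0.011, far less than its standard error. It was among the 7.42% of tested miRNAs that were DE-miRNAs with a higher level in cold acclimated cells, and 1 other such miRNA had a lower fold change. The adjusted p depended on single libraries: it was 0.0305 without cold acclimation replicate 1, 0.0289 without cold acclimation replicate 2, 0.0136 without control replicate 1 and 0.0137 without control replicate 2, all short of the threshold. It was 0.00436 with cold acclimation replicate 3 left out and 0.000114 with control replicate 3 left out, the libraries nearest to the other condition. The log2 fold change stayed between 1.13 and 1.64 in these 6 fits.

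Scaling mattered to the call but not to the direction. The clean reads of each library were first used as its size, in place of its miRNA reads. The log2 change of dre-miR-34a was then 1.03 (limma, adjusted p = 0.0111). miRNA reads were a smaller part of the clean reads in each cold acclimation library than in any control library. The authors report that the share of reads mapped to all non-coding RNA was only slightly lower in cold acclimation libraries. On this scale dre-miR-34a had 168, 202 and 111 in cold acclimation replicates 1, 2 and 3, against 245, 277 and 136 TPM. In control replicates 1, 2 and 3 it had 71.3, 59.8 and 102, against 73.5, 66.1 and 116 TPM. Scaling by clean reads moved the median of all tested miRNAs by -0.247, and dre-miR-34a lay 1.26 above that median, against 1.31 above it in TPM. It turned the split of all calls to 32 miRNAs that rose and 77 that fell, against 51 and 45 in TPM. With median-of-ratios scaling the log2 fold change of dre-miR-34a was 1.24 (adjusted p = 0.00534; 51 miRNAs rose and 67 fell), and it was 1.18 once the reads of dre-let-7a and dre-miR-100-5p were taken from the totals (adjusted p = 0.00906; 37 rose and 64 fell, and the median of all moved by -0.128). In each of these scalings dre-miR-34a was under the fold change of 2.5.

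**Figure D2:**
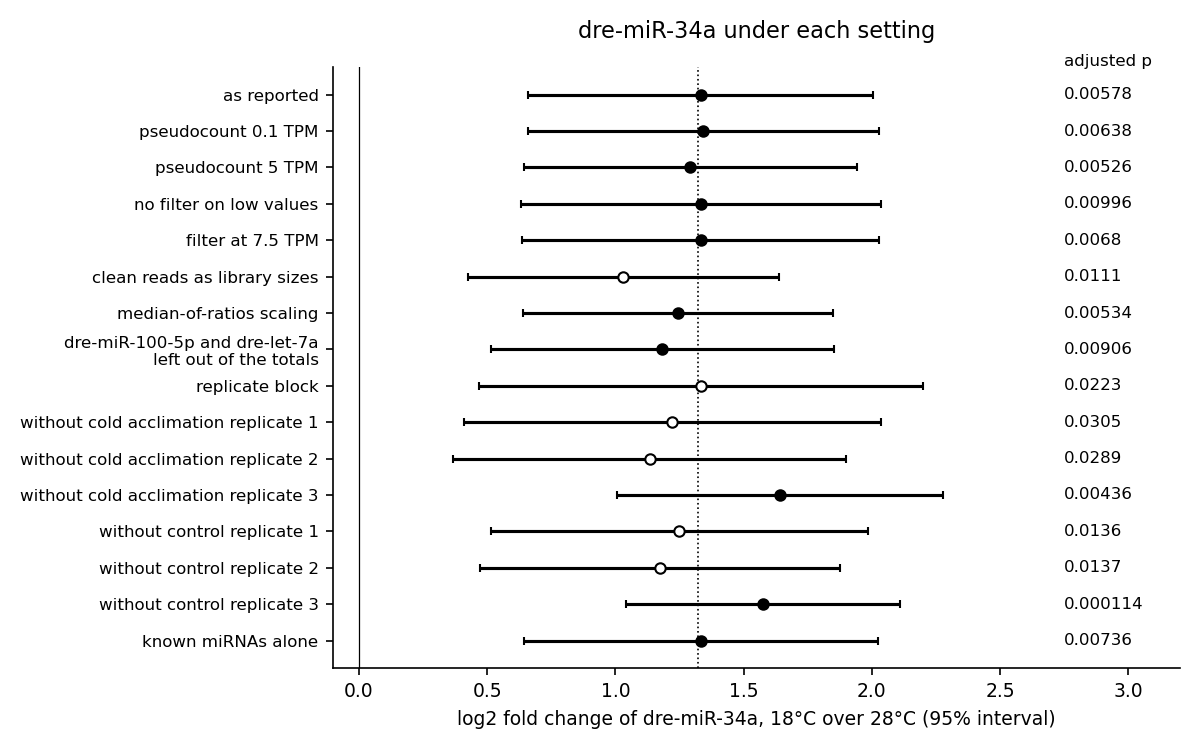
Log2 fold change of dre-miR-34a, 18°C over 28°C (horizontal axis), with its 95% interval from limma, as reported and under each of 15 alternative settings (vertical axis), with the adjusted p at the right. Filled points have an adjusted p under 0.01, open points do not, and the dotted line marks the fold change of 2.5. All 16 intervals lie above 0, and 6 alternatives are open.

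**Figure D3:**
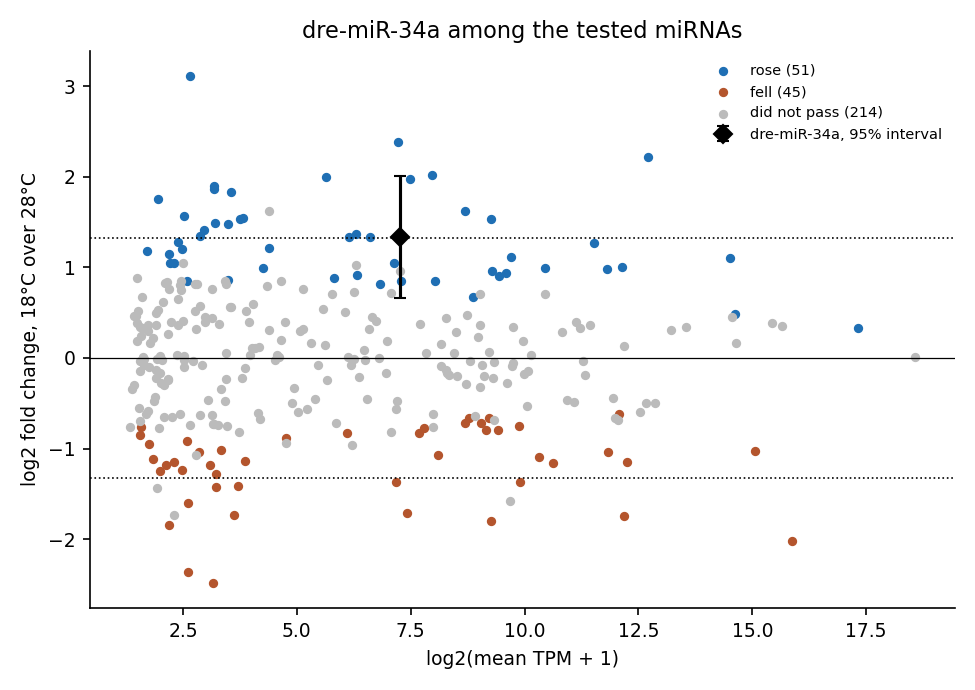
Log2 fold change, 18°C over 28°C (vertical axis), against log2(mean TPM + 1) over the 6 libraries (horizontal axis) for the 310 tested miRNAs, coloured by whether they rose (51), fell (45) or did not pass. The diamond is dre-miR-34a with its 95% interval, and the dotted lines mark the fold change of 2.5 in either direction. dre-miR-34a sits on the upper line, at 1.33.

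dre-miR-34b, from the other miR-34 locus, was lower in cold acclimated cells, at very few reads. It had 0.248, 0.681 and 0.358 TPM in cold acclimation replicates 1, 2 and 3, against 0.936, 0.875 and 0.759 TPM in control replicates 1, 2 and 3. This is 3, 8 and 5 reads in the cold acclimation libraries and 14, 12 and 11 reads in the control libraries. All cold acclimation libraries lay below all control libraries, as they did for 4.81% of the 104 miRNAs under the filter. The two-sided exact permutation test gave p = 0.1, the smallest value this test can give with 3 against 3 libraries.

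The mean of dre-miR-34b was 0.429 ± 0.225 TPM in cold acclimated cells and 0.857 ± 0.0900 TPM in control cells (SD, n = 3 each). Summed over libraries, the ratio of its reads per 1000000 was 0.494, with a 95% interval of 0.257 to 0.910 from counting error alone. In single libraries the counting intervals overlapped: cold acclimation replicate 2, the highest of its group, allowed 0.294 to 1.34 TPM, and control replicate 3, the lowest of its group, 0.379 to 1.36 TPM. In a limma fit with no filter on low values its adjusted p was 0.0466, which missed the threshold.

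Both strands of miR-34c were scarcer still, and most of their reads came from control replicates 1 and 2. dre-miR-34c-5p had 2, 1 and 0 reads in cold acclimation replicates 1, 2 and 3, against 10, 5 and 2 reads in control replicates 1, 2 and 3. dre-miR-34c-3p had 1, 1 and 0 reads in the cold acclimation libraries, against 8, 9 and 1 reads in the control libraries. The conditions touched or overlapped in reads for both strands: control replicate 3, with 3 reads over both strands, was no higher than cold acclimation replicate 1, also with 3. The 0 reads in cold acclimation replicate 3 leave room for up to 3 reads, or 0.215 TPM, of each strand.

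In TPM, dre-miR-34c-5p averaged 0.0836 ± 0.0828 in cold acclimated cells and 0.390 ± 0.266 in control cells, and dre-miR-34c-3p 0.0560 ± 0.0485 in cold acclimated cells and 0.420 ± 0.310 in control cells (SD, n = 3 each). Two-sided exact permutation tests gave p = 0.2 for the 5p strand and p = 0.3 for the 3p strand, where 0.1 was the smallest possible. The ratio of summed reads per 1000000 was 0.202 for the 5p strand (95% counting interval 0.0379 to 0.697) and 0.127 for the 3p strand (0.0143 to 0.530). These intervals leave out the spread between the control libraries, in which the 5p strand varied by a factor of 4.85 and the 3p strand by a factor of 9.52. Without a filter, limma gave adjusted p = 0.0845 for the 5p strand and 0.0716 for the 3p strand.

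The 2 strands of the miR-34c hairpin had 20 reads each over all libraries. The 5p strand held 3 of 5 reads in cold acclimated cells (60.0%, 95% Clopper-Pearson interval 14.7% to 94.7%) and 17 of 35 reads in control cells (48.6%, interval 31.4% to 66.0%). At these depths a change in the choice of strand was not detectable. All 3 scarce members had a lower mean in cold acclimated cells, as did 42.3% of the 104 miRNAs under the filter. They are not independent of each other, since their genes are neighbours and both miR-34c strands share a precursor.

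Control replicate 3 was the control library nearest to the cold acclimation libraries in every member. It had the highest dre-miR-34a of the controls and the lowest dre-miR-34b, dre-miR-34c-5p and dre-miR-34c-3p. For dre-miR-34b this rests on 11 reads, against 14 and 12 in control replicates 1 and 2, with counting intervals that overlap. The miR-34c strands share a precursor and are not independent. Control replicate 3 also held 203 TPM of the epithelial list, against 106 and 130 TPM in control replicates 1 and 2, and 10.6 TPM of dre-miR-145-5p, against 91.4 and 142 TPM. Whether these differences have a part in its miR-34 levels was not tested. The difference in mean TPM without it was -0.476 for dre-miR-34b, -0.433 for dre-miR-34c-5p and -0.540 for dre-miR-34c-3p, against -0.427, -0.307 and -0.364 with all libraries.

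The balance between dre-miR-34a and dre-miR-34b, 1 mature miRNA from each miR-34 locus, can be read within each library, where no scaling enters. The miR-34c strands, from the locus of dre-miR-34b, are left out of it. There were 985, 407 and 381 reads of dre-miR-34a for each read of dre-miR-34b in cold acclimation replicates 1, 2 and 3, against 78.6, 75.5 and 153 in control replicates 1, 2 and 3. On the log2 scale this ratio averaged 9.06 ± 0.77 in cold acclimated cells and 6.60 ± 0.57 in control cells (SD, n = 3 each), a difference of 2.46. Every cold acclimation library was above every control library in dre-miR-34a and below it in dre-miR-34b. The ratio therefore had to separate the conditions, and its p = 0.1 (two-sided exact permutation test, the smallest possible) is no further result. The denominators are 3 to 14 reads, which limits the precision of each ratio.

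Other miRNAs tied to p53 were read in separate lists, by their tie to it, and the activity of p53 was not measured. The lists were made of miRNAs that p53 is known to act on, or that act on the p53 mRNA, mostly from human cells. Of all 310 tested miRNAs, 16.5% rose and 14.5% fell with all libraries. Of the 6 tested miRNAs whose genes p53 activates in mammals, 2 rose and 1 fell. Their median log2 fold change was 0.51, against 0.019 for all 310. dre-miR-192, a miRNA of gut and liver, was the most abundant of them, with 574 ± 62.3 TPM in cold acclimated cells and 359 ± 34.5 TPM in control cells (SD, n = 3 each; log2 fold change 0.68, limma, adjusted p = 0.00731). Among the other scalings and the fits with 1 library left out, it missed the threshold where clean reads set the library sizes (0.37, adjusted p = 0.0412), with dre-let-7a and dre-miR-100-5p taken from the totals (0.52, adjusted p = 0.0203), and without cold acclimation replicate 1 (adjusted p = 0.0405) or 2 (0.0303) or control replicate 1 (0.0313) or 2 (0.0287).

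The other member that rose was dre-miR-107a-5p (log2 fold change 1.55, adjusted p = 0.000267). It is the partner strand of dre-miR-107a-3p, the strand that matches the mammalian p53-induced miR-107. dre-miR-107a-3p itself changed by 0.45 on the log2 scale (adjusted p = 0.0731), and dre-miR-107b fell (-0.88, adjusted p = 0.00791). Among the fits with another filter or 1 library left out, dre-miR-107b missed the threshold without any one library other than control replicate 3 (adjusted p 0.0108 to 0.0349), and with no filter on low values (adjusted p = 0.0155).

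Of 7 tested strands whose maturation p53 aids in human cells, 1 rose and 2 fell, where 16.5% and 14.5% of all 310 did. The median log2 fold change of these strands was -0.19. dre-miR-16b, of a family that slows the cell cycle, had the largest rise, with 11141 ± 2396 TPM in cold acclimated cells and 2352 ± 117 TPM in control cells (SD, n = 3 each; log2 fold change 2.22, adjusted p = 6.7e-06). Both strands of miR-16c fell (-0.66 for dre-miR-16c-5p and -0.78 for dre-miR-16c-3p), and dre-miR-16a had -0.19 (adjusted p = 0.38). The list's median was -0.78 without control replicate 3, -0.0025 without control replicate 2 and -0.49 where clean reads set the library sizes. The median of all 310 in the same fits was 0.044, 0.084 and -0.23, in that order. The members dre-miR-143, dre-miR-145-5p and dre-miR-145-3p also belong to the mesenchymal list. Without control replicate 3, in which miR-143 and miR-145 stood apart, 1 member rose and 5 fell, where 68 and 67 of all 310 did. Without cold acclimation replicate 1 or 3 or control replicate 1 or 2, 1 rose and 0 fell. Of all 310, 24 to 42 rose and 18 to 29 fell in those fits.

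Of 5 tested miRNAs known to target the p53 mRNA, 3 fell and 0 rose in limma (4 at an unadjusted p under 0.05, all lower, where 56.1% of all 310 had such a p in either direction and 27.7% had it and were lower), with a median log2 fold change of -0.62. dre-miR-125b-5p, which represses p53 in zebrafish and in human cells, had 3041 ± 155 TPM in cold acclimated cells and 6725 ± 580 TPM in control cells (SD, n = 3 each; log2 fold change -1.14, adjusted p = 9.4e-05). It fell in all 15 alternative settings. dre-miR-125a, dre-miR-125b-5p and dre-miR-125c-5p belong by name to the miR-125 family, so they may not be independent of each other. dre-miR-125c-5p and dre-miR-30d also fell (-0.71 and -0.62), and 1 of the 5 fell when any library other than control replicate 3 was left out. In those fits 18 to 29 of all 310 fell, against 45 with all libraries. With all libraries, 31% of the 310 tested miRNAs rose or fell.

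**Figure D4:**
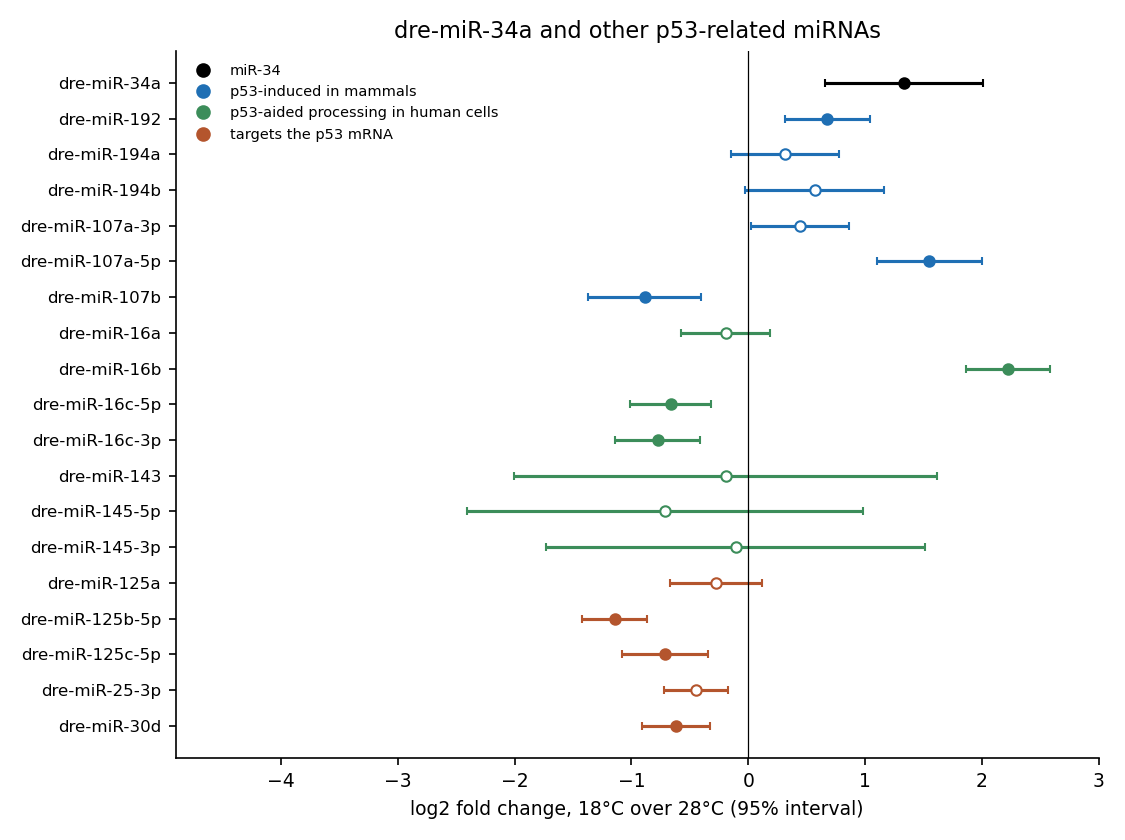
Log2 fold change, 18°C over 28°C (horizontal axis), with 95% intervals from limma for dre-miR-34a and the 18 tested miRNAs of the p53-related lists (vertical axis, coloured by list). Filled points rose or fell at an adjusted p under 0.01. The p53-induced miRNAs lie on both sides of 0, while all 5 that target the p53 mRNA lie below it, between -1.14 and -0.27.

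Counts in the mesenchymal, epithelial and muscle lists changed when control replicate 3 was left out, as did those of all tested miRNAs. With all libraries, none of the 7 epithelial, 4 neural, 1 muscle and 1 blood miRNAs tested rose or fell in limma. At an unadjusted p under 0.05 were 1, 0, 1 and 0 of them. Of all 310, 31% rose or fell, 56.1% had such an unadjusted p, and 27.7% had it and were lower. Without control replicate 3, 1 epithelial miRNA, dre-miR-200c-5p, rose (named after its values were seen) and the muscle miRNA dre-miR-133a-3p fell (log2 fold change -0.91, limma, adjusted p = 0.00382). Of the 8 mesenchymal miRNAs, 2 fell and 0 rose (3 at an unadjusted p under 0.05, all lower), with a median log2 fold change of -0.70. Without control replicate 3, 7 of the 8 fell and the median was -1.27. In that fit 68 of all 310 rose and 67 fell, with a median of 0.044. dre-miR-143, dre-miR-145-5p and dre-miR-145-3p are also in the list of strands whose maturation p53 aids. The counts of these lists without control replicate 3 are therefore not separate results. That library was itself set apart by miR-143 and miR-145. Of the 8, 0 fell without cold acclimation replicate 1 or control replicate 1, where 18 and 27 of all 310 fell. With any of the other 3 libraries left out, 1 of the 8 fell (median -0.19 without control replicate 2). With all libraries, 45 of the 310 fell. dre-miR-199-3-3p had a log2 fold change of -0.79 with all libraries, and dre-miR-21 had 0.016. dre-miR-141-3p was the most abundant epithelial miRNA, with 74.5 ± 13.95 TPM in cold acclimated cells and 88.1 ± 29.4 TPM in control cells (SD, n = 3 each). The log2 fold changes were -0.63 for dre-miR-200a-3p, -0.23 for dre-miR-9-5p, 0.40 for dre-miR-9-4-3p, -0.65 for dre-miR-133a-3p and -0.35 for dre-miR-150, and with all libraries none of them passed.

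The known miRNAs whose profile over the 6 libraries was closest to that of dre-miR-34a were both strands of miR-15a and dre-miR-729. Closeness was measured as the root mean square difference of log2(TPM + 1), after centring each miRNA on its own mean, and was 0.17 for dre-miR-15a-5p, 0.19 for dre-miR-15a-3p and 0.23 for dre-miR-729, against a median of 0.76 over 244 known miRNAs. dre-miR-15a-5p had 924, 1165 and 641 TPM in cold acclimation replicates 1, 2 and 3, against 262, 281 and 385 TPM in control replicates 1, 2 and 3. As for dre-miR-34a, replicate 3 was the lowest cold acclimation library and the highest control library. All 3 rose, with log2 fold changes of 1.53, 1.34 and 1.48 in the order given. These profiles share the same libraries and totals, and the closeness is a description.

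**Figure D5:**
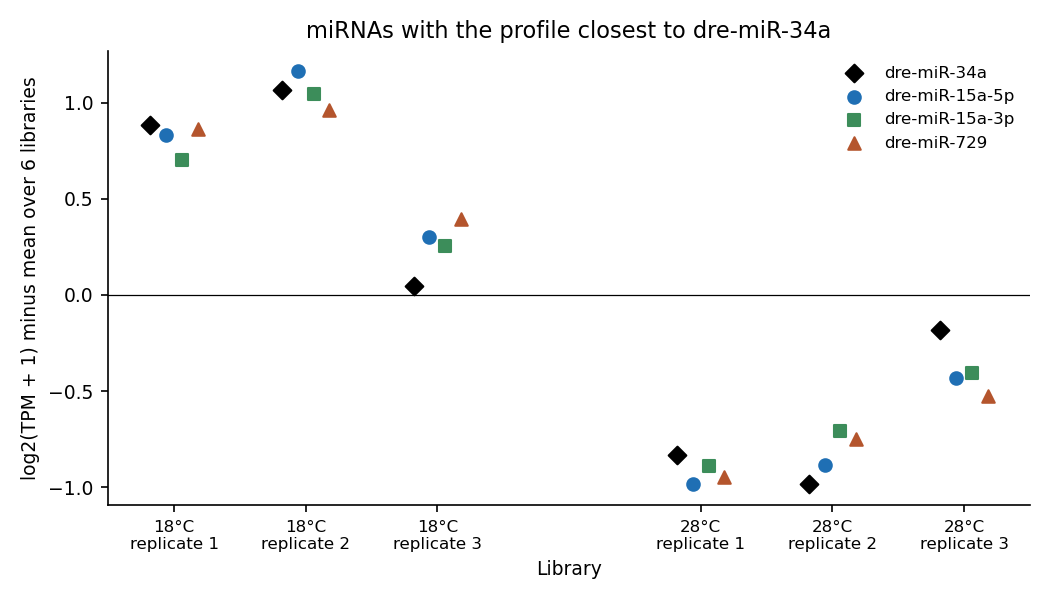
log2(TPM + 1) of dre-miR-34a, dre-miR-15a-5p, dre-miR-15a-3p and dre-miR-729, each minus its mean over the 6 libraries (vertical axis), in each cold acclimation library (18°C, left) and control library (28°C, right). Each point is 1 library. In all 4 miRNAs, replicate 3 is the lowest point at 18°C and the highest at 28°C.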

How the data were processed

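The authors trimmed the 50-bp single-end small RNA reads, kept reads of 17 to 35 nt, aligned them to miRBase 22 (Bowtie2 2.3.0 in the submitters' processing notes) and deposited 1 table of CPM, named TPM by them, scaled to 1000000 miRNA reads per library. The counting of reads that fit more than 1 miRNA was not stated, so the related members may share reads. Reads were recovered as multiples of the value of 1 read, for description and counting intervals. No libraries had identical values (0 pairs), and 0 columns were left out.

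limma 3.58.1 (R 4.3.3, eBayes with a trend, no pairing) was run on log2(TPM + 1). It was also tested on simulated data, with changes larger than that of dre-miR-34a. For single values, two-sided exact permutation tests were made in scipy 1.17.1 (Python 3.11.15). Alternatives were pseudocounts of 0.1 and 5 TPM, no filter or one at 7.5 TPM, 3 other scalings (one by the clean reads the authors state), a replicate block, the known miRNAs by themselves, and 1 library left out in turn.

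Members, the 8 lists and all alternatives were chosen with earlier results of these data known. The miRNAs named are the members, the most abundant and the smallest adjusted p of each list, and the 3 closest profiles. Others were chosen after their values were seen. Sequences of the members were not used here.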

Additional observations from a re-analysis of the deposited data

How the results depend on the processing

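dre-miR-34a was higher in cold acclimated cells in all 15 alternatives, with log2 fold changes of 1.03 to 1.64, and had an adjusted p under 0.01 in 9 of them and over it in 6 (0.000114 to 0.0305 over all 15). The call was lost when clean reads set the library sizes (1.03, adjusted p = 0.0111), with a replicate block (1.33, adjusted p = 0.0223) and in 4 of the 6 fits with 1 library left out (1.13 to 1.64 over these 6), where fewer libraries were fitted. It was a DE-miRNA in 6 of the 15. The labels give same-numbered libraries only a shared number. Their deviations from the group means correlated at 0.015, 0.14 and 0.060, each above the pairs of unlike number (-0.089 to 0.0091). Centring each group on its own mean ties these values to each other, so they are not separate evidence of pairing. Whether same-numbered libraries were handled together is not stated. Over all tested miRNAs the block gave 39 that rose and 30 that fell, against 51 and 45. Among the named miRNAs the block also ended the calls of dre-miR-192 (adjusted p = 0.0190), dre-miR-107b (0.0113), dre-miR-16c-5p (0.0109), dre-miR-16c-3p (0.0105) and dre-miR-125c-5p (0.0105). Other counts that moved by over 1.5 times were 32 that rose and 77 that fell with clean reads, and 14 DE-miRNAs with a pseudocount of 5 TPM, against 36. Among known miRNAs alone, 245 were tested and 27 fell. That count leaves out the predicted miRNAs, so it cannot be set against the 45 of all tested miRNAs. With 1 library left out, 24 to 68 rose and 18 to 67 fell. With clean reads, levels were lowered more in cold acclimation libraries, where miRNA reads were a smaller part of the clean reads. Why that part was smaller was not tested, nor was the cause of the other shifts.

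The scarce members kept a lower mean in cold acclimated cells with clean reads as library sizes, in limma without a filter and with each library left out, where the difference in TPM was -0.553 to -0.337 for dre-miR-34b, -0.433 to -0.168 for dre-miR-34c-5p and -0.540 to -0.246 for dre-miR-34c-3p. The summed level of dre-miR-34a, dre-miR-34b and dre-miR-34c-5p differed by 133 TPM, by 82.1 reads per 1000000 clean reads, and by 104 to 175 TPM with 1 library left out. The 2 planned count models were not run. All values lay within 0.000584 of a whole number of reads. The 84 to 98 values of at most 20 reads per library were too few for the check that a count test required. At 0 to 14 reads per library, depth limits what can be said of dre-miR-34b and miR-34c.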
